A study of Homo sapiens with 11 samples.

Results

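The comparison described here set MV4-11 cells carrying a short hairpin RNA (shRNA) against RUNX1 beside the same cells without it. The arrays were chosen by title: the 4 knockdown arrays with shRx1 in the title were set against the 4 knockdown arrays without it, so 8 of the 11 arrays of the series were used. MV4-11 is an established acute myeloid leukaemia line with a KMT2A rearrangement. The arrays with shRx1 held shRx1 alone, shRx1+shRx2, shRx1+shRx3 and shRx1+shRx2+shRx3, the last called the triple knockdown here. Those without it held shLuc (a hairpin against luciferase), shRx2, shRx3 and shRx2+shRx3. All 8 cell populations, shLuc included, had received hairpins by transduction and a 24 hours' exposure to 3 µM doxycycline. Each condition had 1 array, and the labels do not say whether arrays came from separate transductions. The p-values below therefore reflect the spread between arrays, technical or not. That spread also holds any way in which the effect of 1 hairpin depends on another. The other 3 arrays held cells given DMSO, Chb-M' or Chb-50 for 6 hours, with the compounds at 1 µM.

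RUNX1 encodes a DNA-binding transcription factor that joins CBFB and controls the making of blood cells, including the maturation of monocytes and granulocytes. RUNX2 and RUNX3 are its paralogues, bind the same core sequence and share CBFB as partner. In leukaemias with a KMT2A fusion, RUNX1 is known as a factor on which growth of the cells can depend.

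Arrays that differed only in shRx1 were paired, which gave 4 pairs that share no array: shRx1 with shLuc, shRx1+shRx2 with shRx2, shRx1+shRx3 with shRx3, and the triple knockdown with shRx2+shRx3. All values are log2 levels of a transcript cluster (the probes read together for a locus), and every difference is the array with shRx1 minus the array without it. In sentences with 8 levels, those with the RUNX1 shRNA come in the order shRx1, shRx1+shRx2, shRx1+shRx3 and triple knockdown, and those without it in the order of their partners. The median level of the 12147 genes tested was between 5.86 and 5.91 on each of the 8 arrays.

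RUNX1 itself was read only through a cluster listed jointly for RUNX1 and LOC100506403, and that reading lay slightly lower with the RUNX1 shRNA. It was 4.12, 4.26, 4.03 and 3.96 with the shRNA, against 4.30, 4.45, 4.20 and 4.24 without it. The reading was lower in each of the 4 pairs, but the sides overlapped, since shRx1+shRx2 read 4.26, within the range of 4.20 to 4.45 of the arrays without shRx1. The averages were 4.09 ± 0.129 with and 4.30 ± 0.109 without the shRNA (SD, n = 4 each), a difference of -0.21 that left 86.6% of the level. Over the 70 splits of the 8 arrays, a two-sided exact permutation test gave p = 0.0857 (adjusted over 4 readings, 0.343), where the smallest possible p was 0.0286. A cluster shared with another locus and read this close to the level filter of 3.80 is a weak check of the knockdown.

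The other family members did not separate the sides. RUNX2 read 6.30, 5.70, 6.13 and 5.82 with the RUNX1 shRNA, against 6.14, 5.72, 6.00 and 5.56 without it, a difference of 0.13 (exact permutation p = 0.571, adjusted p = 0.686). RUNX3 read 7.70, 8.37, 7.65 and 7.66 with the shRNA, against 8.15, 8.24, 7.76 and 7.87 without it, a difference of -0.16 (exact permutation p = 0.486, adjusted p = 0.686). The array labelled shRx1 therefore read RUNX3 at the level of the arrays carrying the RUNX3 shRNA, a hairpin that is not on its label, and lay -0.45 below its partner shLuc. The label of this array, and so what the shRx1 minus shLuc pair measures, is open to doubt, but whether the array is mislabelled was not tested. The RUNX1 and LOC100506403 cluster differed by -0.18 in this pair, against -0.19, -0.17 and -0.29 in the others. CBFB, the shared partner, averaged 9.32 ± 0.105 with and 9.29 ± 0.0548 without the shRNA (SD, n = 4 each; exact permutation p = 0.686).

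**Figure D1:**
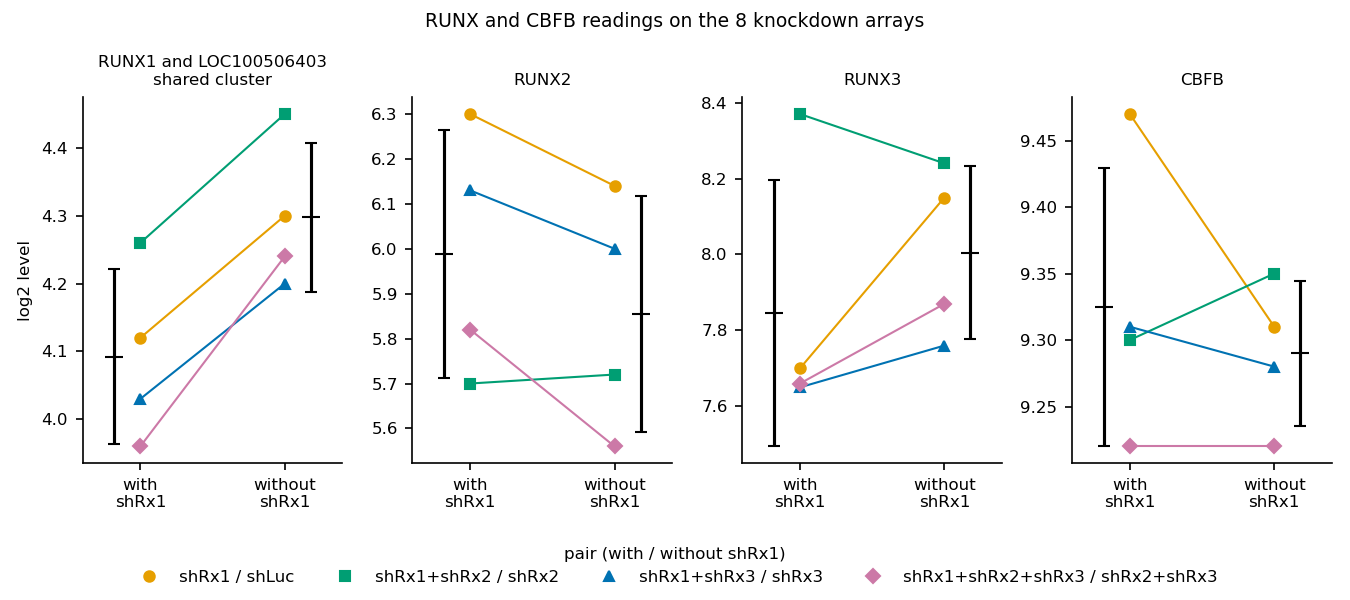
Log2 levels of the RUNX1 and LOC100506403 shared cluster, RUNX2, RUNX3 and CBFB on the 8 knockdown arrays, with lines joining the arrays of a pair and bars giving the mean ± SD (n = 4). The shared cluster slopes the same way in all 4 pairs, while RUNX3 reads 7.70 on the array labelled shRx1.

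The array labelled shRx1 also stood apart in its differences over all genes. Across the 12147 genes, its pair correlated with the other 3 pairs at Pearson r = 0.08, 0.16 and 0.21. Those 3 pairs correlated with each other at r = 0.37, 0.42 and 0.68, the highest between the pairs whose arrays carry the RUNX3 shRNA. These values are across genes, which are not independent replicates. For some of the results below, values without this array are given as well. The other results include it.

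The pairs differed in size. Differences over genes had an SD of 0.221 for shRx1 against shLuc and 0.215 for shRx1+shRx2 against shRx2. The SD was 0.332 for shRx1+shRx3 against shRx3 and 0.295 for the triple knockdown against shRx2+shRx3. At 1.5-fold or more, 134 genes lay higher and 150 lower in the shRx1 pair, and 137 higher and 98 lower in the shRx1+shRx2 pair. The corresponding counts were 415 higher and 567 lower in the shRx1+shRx3 pair and 309 higher and 438 lower in the triple knockdown pair.

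In all 4 pairs, 1810 genes (14.9% of those tested) read higher with the RUNX1 shRNA and 1580 (13% of those tested) read lower. The median estimate, which equals the mean of the 4 pair differences, was 0.20 in the higher set and -0.21 in the lower set, against 0.01 over all genes tested. A further 2734 genes read higher in 3 pairs and lower in 1, and 2362 read lower in 3 pairs and higher in 1. Without the array labelled shRx1, 3179 genes (26.2%) read higher and 2580 (21.2%) lower in the 3 remaining pairs. At 1.5-fold in each of the 4 pairs, 2 genes (0.0165%) remained on the higher side, SMIM14 and ITGAX, and 1 small RNA (0.00823%) on the lower side.

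Sides that did not overlap were rarer than pairs of 1 direction. All 4 arrays with the RUNX1 shRNA lay above all 4 without it for 626 genes (5.15%) and below them for 574 genes (4.73%). In an additive limma fit with the presence of each of the 3 shRNAs as terms, 0 of 12147 genes passed an adjusted p of 0.05 (0%) for the RUNX1 shRNA, while 2580 (21.2%) had an unadjusted p under 0.05. A trended and robust variance prior gave 65 calls, 51 higher and 14 lower, and a stricter level filter gave 34, 28 higher and 6 lower. Without the array labelled shRx1 the same fit called 362 genes higher (2.98%) and 455 lower (3.75%). Every remaining array with the RUNX1 shRNA then carries another RUNX hairpin as well, so the fit without that array describes combinations. Of the genes named below, both of these fits called SPOPL, ACSL1, BECN1, UBE4A, SMIM14, TGFBI, BLOC1S6, DMXL2, PDE4DIP, LSP1, VAPA, ITGA4 and GSR higher and HROB, NEDD1 and IGF2BP1 lower. The trended and robust prior also called LRRC25, F13A1, CD68, CDK6, PSAP and EDEM1 higher and MCM5 lower. The limma adjusted p of SPOPL was 0.0273 with that prior and 0.0384 with the stricter filter. No named gene was called by the additive fit itself, whose adjusted p are those printed below, and the direction words used for single genes describe readings, not calls.

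The 15 protein-coding genes with the largest smallest pair difference on the higher side were SMIM14, ITGAX, ACSL1, SPOPL, GCH1, BECN1, CRISPLD2, LRRC25, AOAH, ME1, TGFBI, SLC35D2, F13A1, BLOC1S6 and DAPP1. They included genes of monocytes and macrophages, of lipid and cofactor metabolism and of autophagy and organelle formation. Their estimates ran from 0.54 to 1.19 with limma adjusted p between 0.0755 and 0.103. The sides did not overlap for 12 of the 15 (5.15% of all genes), and 13 of the 15 were called without the array labelled shRx1 (2.98% of all genes), counts that follow from choosing the genes by their pair differences on these arrays. In 13 of the 15, the difference was larger in the shRx1+shRx3 pair than in the shRx1 pair.

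SMIM14, which encodes a small integral membrane protein, had the highest estimate. It read 5.26, 5.95, 5.94 and 5.81 with the RUNX1 shRNA, against 4.30, 4.98, 4.13 and 4.79 without it. Every array with the shRNA lay above every array without it, and the estimate was 1.19 (SE 0.163, limma adjusted p = 0.0817). ITGAX, the integrin subunit CD11c of monocytes, macrophages and dendritic cells, read 3.91, 4.62, 4.74 and 4.59 with the shRNA, against 3.23, 3.90, 3.50 and 3.41 without it. Its sides only just separated, since the array labelled shRx1 was the lowest with the shRNA at 3.91 and shRx2 the highest without it at 3.90, and its levels lay near the filter.

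Several further genes of this set are known from mature myeloid cells. LRRC25, a leucine-rich repeat membrane protein of myeloid cells, read 5.73, 6.03, 6.32 and 6.40 with the RUNX1 shRNA, against 5.05, 5.57, 5.19 and 5.32 without it. AOAH, the acyloxyacyl hydrolase that inactivates bacterial lipopolysaccharide, read 4.81, 5.24, 5.22 and 5.68 with it, against 4.35, 4.65, 4.32 and 4.18 without it. F13A1, the coagulation factor XIII A subunit made by monocytes and macrophages, read 7.11, 7.44, 7.40 and 7.30 with it, against 6.48, 7.0, 6.41 and 6.52 without it. For all 3 the sides did not overlap, and the arrays carrying the RUNX3 shRNA gave the largest differences. TGFBI, an extracellular matrix protein induced by TGF-beta, read 5.62, 5.77, 6.01 and 6.01 with the RUNX1 shRNA, against 5.17, 5.27, 5.09 and 5.06 without it. Its levels without the shRNA were tight, with an SD of 0.0962, and the estimate was 0.70 (SE 0.103, limma adjusted p = 0.0817). CRISPLD2, a secreted protein that binds lipopolysaccharide, had an estimate of 0.73 with overlapping sides, and DAPP1, a phosphoinositide-binding adaptor of leukocyte signalling, had one of 0.81 with sides that did not overlap.

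Some genes of other kinds differed by similar amounts in the 4 pairs. SPOPL, a substrate adaptor of CUL3 ubiquitin ligases, read 6.41, 6.44, 6.94 and 7.0 with the RUNX1 shRNA, against 5.78, 5.90, 6.14 and 6.36 without it (estimate 0.65, SE 0.0619, limma adjusted p = 0.0755). ACSL1, which activates long-chain fatty acids to acyl-CoA, read 6.58, 6.85, 7.21 and 7.27 with the shRNA, against 5.94, 6.29, 6.50 and 6.69 without it. Its 4 pair differences lay between 0.56 and 0.71, but the sides overlapped because levels also differed between the partner hairpins. BECN1, the autophagy protein Beclin 1, read 8.03, 7.92, 8.41 and 8.41 with the shRNA, against 7.53, 7.43, 7.76 and 7.89 without it. UBE4A, a U-box ubiquitin ligase, read 9.10, 8.95, 9.35 and 9.29 with it, against 8.58, 8.54, 8.90 and 8.87 without it. Within each side, all 4 of these genes read higher on the arrays with the RUNX3 shRNA than on those without it.

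Among the 13 named genes of the higher set with a promoter entry, BECN1 was the 1 whose proximal promoter held the RUNX core letters. The core was searched as TGTGGT on both strands in the 250 bases before the annotated start (RefSeq, GRCh38.p14), and it began 70 bases before the start of BECN1. The stretch, chr17:42823880-42824129 on the minus strand, is shown with the match in capitals.
BECN1: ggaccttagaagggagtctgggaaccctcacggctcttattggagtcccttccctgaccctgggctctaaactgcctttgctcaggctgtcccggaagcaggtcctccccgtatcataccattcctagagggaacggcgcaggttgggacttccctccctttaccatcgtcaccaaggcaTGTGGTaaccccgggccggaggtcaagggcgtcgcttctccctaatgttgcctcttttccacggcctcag
Such a match is common, and 1 of 13 (7.69%) is near the share of all genes. Of the 11 promoters of named genes on the lower side, 0 held the letters. The letters were found in 7.85% of 1401 promoters of the genes higher in all 4 pairs, in 7.05% of 1248 promoters of the genes lower in all 4 pairs, and in 7.89% of the 9181 promoters matched over all genes tested. The shares differed little from that of all genes, and a match in this window is a description of letters, not of binding.

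**Figure D2:**
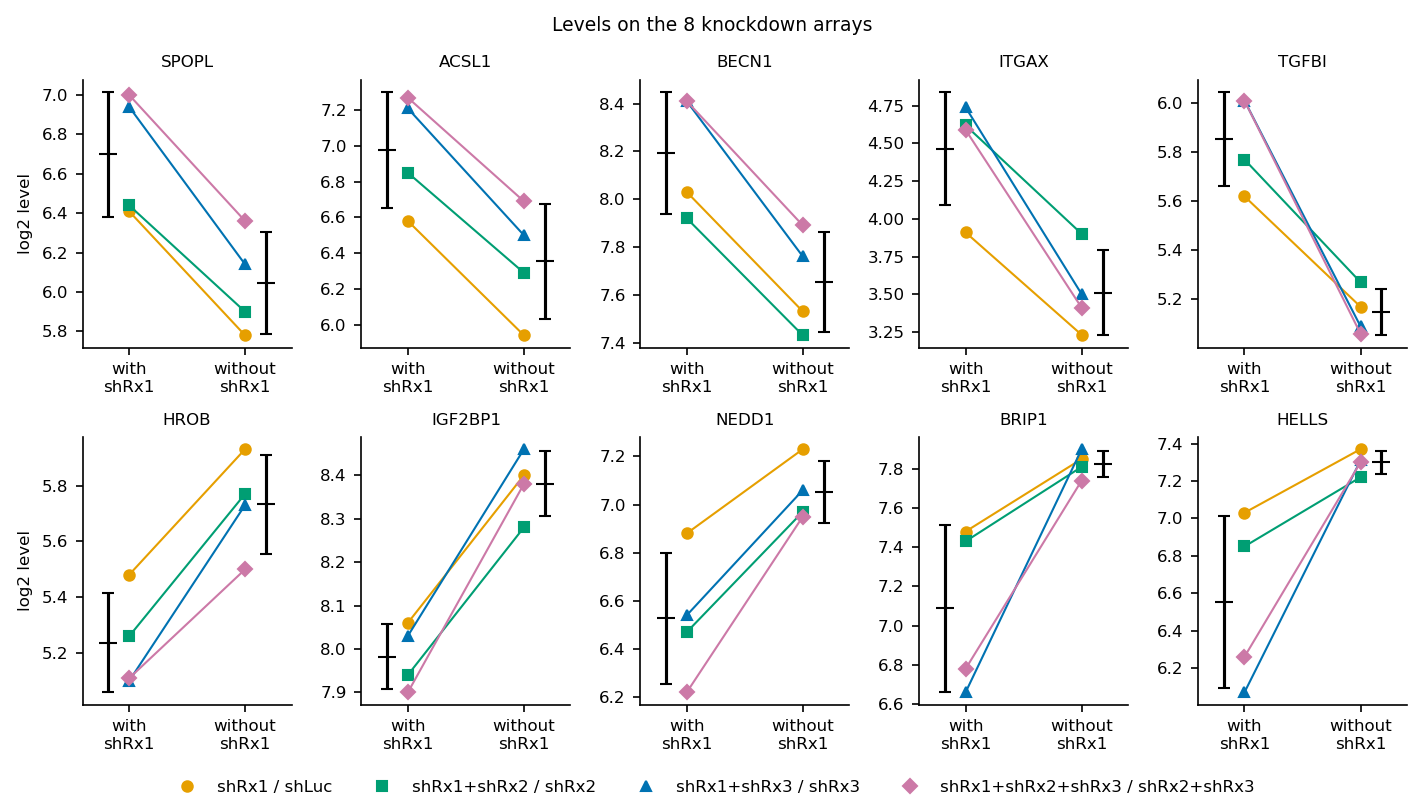
Log2 levels of 10 genes on the 8 knockdown arrays, with lines joining the arrays of a pair and bars giving the mean ± SD (n = 4). SPOPL, ACSL1 and BECN1 have near-parallel lines, while BRIP1 and HELLS have their lowest levels, 6.66 to 6.78 and 6.07 to 6.26, on the arrays that carry both the RUNX1 and the RUNX3 shRNA.

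Metabolic genes completed the higher set. GCH1, the rate-limiting enzyme of tetrahydrobiopterin synthesis, read 6.13, 6.34, 6.00 and 5.64 with the RUNX1 shRNA, against 5.33, 5.85, 5.25 and 5.05 without it. It had its largest difference, 0.80, in the shRx1 pair, and its sides overlapped through the shRx2 array. ME1, the cytosolic malic enzyme that makes NADPH, read 5.22, 4.74, 5.00 and 5.23 with the shRNA, against 4.68, 3.76, 4.55 and 4.43 without it. Its differences did not follow the RUNX3 shRNA, with the largest, 0.98, in the shRx1+shRx2 pair. BLOC1S6, the pallidin subunit of a complex that forms lysosome-related organelles, had an estimate of 0.60 (SE 0.0828, limma adjusted p = 0.0817), and the nucleotide sugar transporter SLC35D2 one of 0.78 (SE 0.151, limma adjusted p = 0.0897). Neither ME1 nor SLC35D2 passed the stricter level filter. DMXL2, a vesicle protein that regulates the proton pump, read 7.93, 7.87, 8.20 and 8.14 with the shRNA, against 7.40, 7.51, 7.54 and 7.50 without it, with no overlap.

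The 15 named genes on the lower side were ALDH1L2, HROB, SLC38A1, SLC27A2, BRIP1, GGH, KHK, WT1, NEDD1, ZGRF1, HELLS, IGF2BP1, GPSM2, CCDC138 and FIRRM. Most have known parts in DNA repair and cell division or in folate and nutrient metabolism. Estimates ran from -1.21 to -0.40 with limma adjusted p between 0.0817 and 0.0995, the sides did not overlap for 11 of the 15 (4.73% of all genes), and 14 of the 15 were called without the array labelled shRx1 (3.75% of all genes), which again follows from how they were chosen. In 14 of the 15, the shRx1+shRx3 pair differed more than the shRx1 pair.

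**Figure D3:**
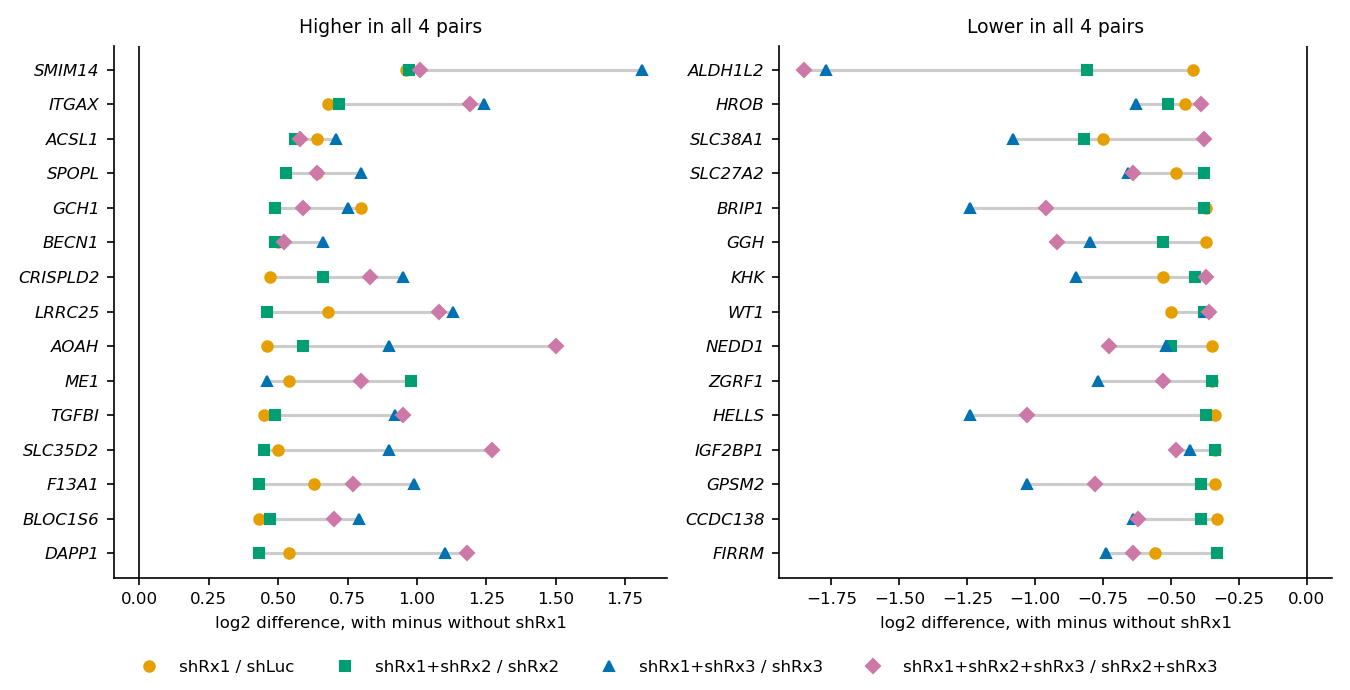
Log2 differences, with minus without shRx1, in each of the 4 pairs for the 15 named genes on the higher side and the 15 on the lower side. All points of a panel lie on 1 side of 0, which the choice of genes fixes, and most of the widest differences belong to the 2 pairs whose arrays carry the RUNX3 shRNA.

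HROB, which loads the MCM8 and MCM9 helicase during homologous recombination, read 5.48, 5.26, 5.10 and 5.11 with the RUNX1 shRNA, against 5.93, 5.77, 5.73 and 5.50 without it (estimate -0.49, SE 0.0614, limma adjusted p = 0.0817). Its highest level with the shRNA, 5.48, lay just below its lowest level without it, 5.50. BRIP1, the Fanconi helicase FANCJ, read 7.48, 7.43, 6.66 and 6.78 with it, against 7.85, 7.81, 7.90 and 7.74 without it. HELLS, a SNF2-family chromatin remodeller, read 7.03, 6.85, 6.07 and 6.26 with it, against 7.37, 7.22, 7.31 and 7.30 without it. BRIP1 and HELLS were uneven over the 4 arrays with the shRNA (SD 0.427 and 0.460) and even over the 4 without it (SD 0.0652 and 0.0598), and the arrays with it that carry the RUNX3 shRNA were lowest. ZGRF1, a helicase of DNA crosslink repair, and FIRRM, a partner of FIGNL1 in recombination, had estimates of -0.50 (SE 0.0944) and -0.57 (SE 0.108), both without overlap.

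Spindle genes were also among them. NEDD1, which brings gamma-tubulin to centrosomes and spindles, read 6.88, 6.47, 6.54 and 6.22 with the RUNX1 shRNA, against 7.23, 6.97, 7.06 and 6.95 without it (estimate -0.53, SE 0.0738, limma adjusted p = 0.0817). GPSM2, which orients the mitotic spindle, read 6.85, 6.62, 6.18 and 6.26 with it, against 7.18, 7.02, 7.21 and 7.04 without it. Neither gene's sides overlapped.

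Metabolic genes on the lower side were led by ALDH1L2, the mitochondrial formyltetrahydrofolate dehydrogenase. It read 6.60, 5.52, 4.99 and 4.84 with the RUNX1 shRNA, against 7.02, 6.33, 6.76 and 6.69 without it. The array labelled shRx1 lay among the arrays without the shRNA, and the estimate of -1.21 (SE 0.276, limma adjusted p = 0.0995) became -1.51 (adjusted p = 0.0344) without that array. GGH, which trims folate polyglutamates, read 4.52, 4.12, 3.67 and 3.66 with it, against 4.89, 4.65, 4.47 and 4.58 without it. SLC38A1, a glutamine transporter, had pair differences of -0.75, -0.82 and -1.08 and the smallest, -0.38, in the triple knockdown pair. Ketohexokinase KHK (estimate -0.54, SE 0.0963) and the fatty acid transporter and acyl-CoA synthetase SLC27A2 (estimate -0.54, SE 0.116) lay lower by the same estimate, the first without overlap and the second with it.

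A pair of leukaemia-related genes differed evenly. WT1, a transcription factor found at high level in most acute myeloid leukaemias, read 6.83, 6.51, 6.64 and 6.63 with the RUNX1 shRNA, against 7.33, 6.89, 7.01 and 6.99 without it. It was the only named gene on the lower side whose difference was largest in the shRx1 pair, at -0.50. IGF2BP1, an oncofetal RNA-binding protein, read 8.06, 7.94, 8.03 and 7.90 with it, against 8.40, 8.28, 8.46 and 8.38 without it (estimate -0.40, SE 0.0549, limma adjusted p = 0.0817). Both sides of IGF2BP1 were tight and did not overlap, while its relative IGF2BP2 had an estimate of -0.25 and read 0.04 higher in the shRx1+shRx2 pair.

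The gene lists gave the broader picture, and lists of DNA replication and cell division held the lowest readings. All 30 genes of origin licensing and the replication fork read lower in all 4 pairs, where 13% of all genes did, and the sides did not overlap for 25 of the 30 (4.73% of all genes on that side). Their median estimate was -0.60, against 0.01 over all genes tested. The list's median was -0.20 in the shRx1 pair, -0.36 in the shRx1+shRx2 pair, -1.01 in the shRx1+shRx3 pair and -0.88 in the triple knockdown pair. None passed the additive limma fit on the 8 arrays, while the trended and robust prior called MCM5 lower (-0.46, limma adjusted p = 0.0474). All 30 had an unadjusted p under 0.05 on the lower side, where 1217 of 12147 genes tested did. Without the array labelled shRx1, 28 were called lower (3.75% of all genes). In RNA of a whole culture, fewer dividing cells and less of each transcript per cell cannot be told apart.

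The members covered each step of replication. ORC1, ORC6, CDC6 and CDT1 load the MCM2 to MCM7 helicase at origins, CDC45 and the GINS subunits activate it, and the polymerases, clamp and clamp loader follow. MCM3 read 9.15, 8.93, 8.35 and 8.45 with the RUNX1 shRNA, against 9.43, 9.35, 9.42 and 9.37 without it. GINS2 read 7.46, 7.17, 6.29 and 6.41 with it, against 7.66, 7.66, 7.63 and 7.58 without it. PCNA, the sliding clamp, read 9.84, 9.60, 9.25 and 9.36 with it, against 9.91, 9.90, 9.98 and 9.85 without it. In each the 4 arrays without the shRNA were nearly level and the 4 with it spread downwards in 1 order, shRx1 nearest to the others and shRx1+shRx3 farthest. POLE2, a subunit of the leading-strand polymerase, and TICRR, which fires origins, shared the lowest estimate with GINS2 at -0.80, while PCNA (-0.39) and MCM7 (-0.37) lay least low. CDC6 (-0.75), CDT1 (-0.57), GINS1 (-0.74), RFC3 (-0.54) and RFC5 (-0.50) were the members with overlapping sides.

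**Figure D4:**
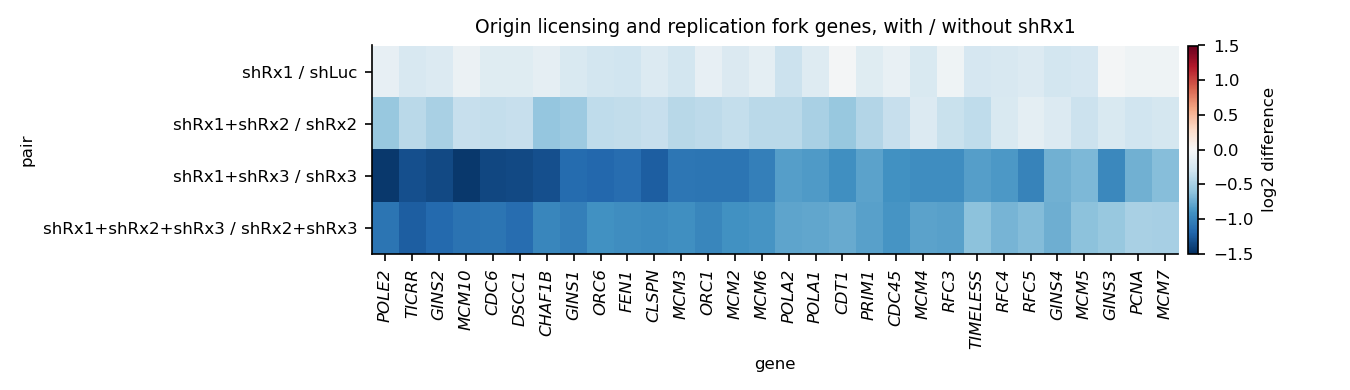
Log2 differences, with minus without shRx1, for the 30 origin licensing and replication fork genes in each of the 4 pairs, on a colour scale from -1.5 to 1.5. All cells are negative, and the rows darken to the shRx1+shRx3 pair (median -1.01), with the triple knockdown pair next (median -0.88).

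Proximal promoters of replication genes carried letters of the E2F site. TTTCCCGC or TTTGGCGC, on either strand, was found in 8 of 26 licensing and fork promoters (30.8%), against 3.2% of the promoters of all genes tested. The promoters of GINS2 (chr16:85688955-85689204), MCM3 (chr6:52284743-52284992) and MCM6 (chr2:135876444-135876693), all on the minus strand, are shown as members that read lower in every pair without overlap. Capitals mark the matches, which begin 31 bases before the start in GINS2, 174 in MCM3, and 152 and 90 in MCM6. In GINS2 the match lies on the opposite strand and reads as its reverse complement.
GINS2: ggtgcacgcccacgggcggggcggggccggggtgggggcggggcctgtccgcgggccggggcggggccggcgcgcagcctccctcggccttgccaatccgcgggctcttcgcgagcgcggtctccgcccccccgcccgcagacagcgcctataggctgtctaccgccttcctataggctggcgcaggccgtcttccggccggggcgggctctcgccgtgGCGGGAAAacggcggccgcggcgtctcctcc
MCM3: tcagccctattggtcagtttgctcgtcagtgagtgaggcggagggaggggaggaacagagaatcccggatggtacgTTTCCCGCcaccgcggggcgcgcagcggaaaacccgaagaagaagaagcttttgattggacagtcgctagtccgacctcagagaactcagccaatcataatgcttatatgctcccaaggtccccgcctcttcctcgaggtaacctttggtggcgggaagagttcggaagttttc
MCM6: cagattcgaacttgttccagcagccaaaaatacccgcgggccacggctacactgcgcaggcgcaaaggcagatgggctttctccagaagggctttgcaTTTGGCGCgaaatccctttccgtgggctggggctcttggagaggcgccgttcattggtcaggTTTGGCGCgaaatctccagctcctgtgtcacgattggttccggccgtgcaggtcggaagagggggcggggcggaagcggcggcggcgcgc
MCM6 read 9.43, 9.09, 8.54 and 8.69 with the RUNX1 shRNA, against 9.58, 9.49, 9.57 and 9.57 without it. Whether E2F proteins occupied these letters was not measured.

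The mitosis list lay almost as low. Of 28 genes tested, 24 read lower in all 4 pairs (13% of all genes), all 28 had a negative estimate, and the median was -0.57. In contrast to the licensing genes, sides did not overlap for only 2 of 28 (4.73% of all genes), KIF18A and NUSAP1. KIF18A, a kinesin that limits chromosome movement, read 7.58, 7.29, 6.34 and 6.52 with the RUNX1 shRNA, against 7.88, 7.60, 7.76 and 7.64 without it. CCNF, the cyclin F subunit of a ubiquitin ligase, read 8.15, 7.63, 7.01 and 6.99 with it, against 8.40, 8.03, 8.31 and 8.18 without it. The overlap in CCNF came from the array labelled shRx1, which at 8.15 lay above the shRx2 array. The list's pair medians were -0.12, -0.32, -1.04 and -0.78, and 26 of the 28 were called lower without the array labelled shRx1 (3.75% of all genes). The spindle checkpoint gene BUB3 (-0.05) lay farthest from the rest of the list.

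Mitotic promoters carried the letters of another site. The cell cycle homology region (CHR), TTTGAA on either strand, was found in 11 of 24 mitosis promoters (45.8%), against 8.57% of all promoters and 0% of the licensing promoters. The CCAAT box was found in 79.2% of mitosis promoters and in 65.4% of the licensing promoters, against 35% of all, so both lists shared it. The promoters of KIF18A (chr11:28108157-28108406, minus strand) and CCNF (chr16:2429197-2429446, plus strand), which had the lowest estimates of the list, are shown with the CHR letters in capitals, 10 and 85 bases before the start.
KIF18A: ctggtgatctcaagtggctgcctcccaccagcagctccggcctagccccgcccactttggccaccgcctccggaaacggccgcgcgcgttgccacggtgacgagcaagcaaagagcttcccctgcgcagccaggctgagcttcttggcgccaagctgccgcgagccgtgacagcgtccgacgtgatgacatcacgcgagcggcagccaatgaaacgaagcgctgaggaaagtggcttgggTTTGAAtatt
CCNF: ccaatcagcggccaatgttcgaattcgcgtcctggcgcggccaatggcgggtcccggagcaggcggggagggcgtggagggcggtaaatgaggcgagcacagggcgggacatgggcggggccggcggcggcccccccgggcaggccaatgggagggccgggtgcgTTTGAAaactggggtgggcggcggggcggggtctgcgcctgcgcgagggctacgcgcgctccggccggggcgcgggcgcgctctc
These letters are short, and a match says nothing of which protein was bound in these cells.

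Further lists of the S phase and of repair lay lower with more exceptions. Of 18 Fanconi and homologous recombination genes, 16 read lower in all 4 pairs (13% of all genes), sides did not overlap for 12 (4.73% of all genes), and the median was -0.50. EXO1, a nuclease of DNA end resection, read 7.57, 7.11, 6.24 and 6.54 with the RUNX1 shRNA, against 7.69, 7.64, 7.76 and 7.73 without it, while FANCF, an adaptor of the Fanconi core complex, had an estimate of 0.14. Of 20 genes of the E2F family and G1/S control, 9 read lower in all 4 pairs and 1 higher (13% and 14.9% of all genes), with a median of -0.46. E2F8 (-0.86), an atypical E2F repressor, lay lowest, and E2F1 read 7.09, 6.65, 5.67 and 5.96 with the shRNA, against 7.20, 7.15, 7.25 and 7.09 without it. CDK6, the G1 kinase, was the member on the higher side, at 9.28, 9.41, 9.55 and 9.60 with the shRNA, against 9.07, 9.15, 9.09 and 9.24 without it (estimate 0.32, SE 0.0615, limma adjusted p = 0.0892). Its sides did not overlap.

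Supplies for DNA synthesis followed the same order of pairs. Of 16 nucleotide synthesis genes, 9 read lower in all 4 pairs (13% of all genes), all 16 had a negative estimate, and the median was -0.30. Thymidylate synthase TYMS read 9.05, 8.75, 7.89 and 8.21 with the RUNX1 shRNA, against 9.10, 9.10, 9.37 and 9.30 without it. The purine synthesis genes GART (-0.01) and ATIC (-0.07) lay near 0. Of 9 replication-dependent histone genes, 5 read lower in all 4 pairs (13% of all genes), and the linker histone H1-5 read 9.65, 9.39, 8.41 and 8.75 with the shRNA, against 9.80, 9.89, 9.75 and 9.83 without it. The histone list's median was -0.01 in the shRx1 pair and -0.67 in the shRx1+shRx3 pair. Histone genes are near-identical copies, so probes may be shared between them.

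Folate and amino acid genes were split. Of 10 tested genes of serine, glycine and mitochondrial folate metabolism, 3 read lower in all 4 pairs (13% of all genes), ALDH1L2, PHGDH and SHMT2, and the median was -0.19. PHGDH, the first enzyme of serine synthesis, read 6.80, 5.90, 5.39 and 5.62 with the RUNX1 shRNA, against 7.08, 6.62, 6.94 and 7.0 without it. The array labelled shRx1 lay inside the range of the arrays without the shRNA, and the estimate of -0.98 became -1.26 (adjusted p = 0.0344) without it. The mitochondrial folate enzyme MTHFD2 had an estimate of 0.11. Among the 13 tested ATF4 stress targets, asparagine synthetase ASNS read 6.24, 5.98, 5.68 and 5.54 with the shRNA, against 6.61, 6.25, 6.51 and 6.36 without it, and DDIT4, an inhibitor of mTORC1, read 5.09, 5.11, 5.05 and 4.84 with it, against 4.34, 4.64, 4.32 and 4.49 without it. Both had sides that did not overlap, in opposite directions, and the list's median of -0.11 describes neither.

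Monocyte and macrophage genes lay on the higher side. Of 20 tested monocyte and macrophage genes, 9 read higher in all 4 pairs (14.9% of all genes), 0 read lower in all 4, and the median was 0.23. The sides did not overlap for 3 of the 20 (5.15% of all genes), ITGAX, CD68 and MS4A7. CD68, a lysosomal glycoprotein of macrophages, read 9.92, 10.23, 10.29 and 10.33 with the RUNX1 shRNA, against 9.29, 9.87, 9.67 and 9.71 without it. LILRA2, an activating leukocyte immunoglobulin-like receptor, read 5.68, 6.54, 6.98 and 7.10 with it, against 5.60, 5.69, 5.54 and 5.60 without it. LILRA2 was level over the arrays without the shRNA (SD 0.0605), and the array labelled shRx1 lay 0.08 above its partner while the other 3 lay between 0.86 and 1.5 above theirs. IGSF6, an immunoglobulin superfamily receptor of myeloid cells, showed the same shape, with pair differences of -0.16, 0.29, 1.15 and 1.45. The calprotectin genes S100A8 (0.01) and S100A9 (-0.08) and the inhibitory receptor SIRPA (-0.17) did not share that reading.

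Of 15 leukocyte integrin and adhesion genes, 8 read higher in all 4 pairs (14.9% of all genes), 0 lower (13%), and the median was 0.22. ITGA4, the alpha subunit of VLA-4, read 9.22, 9.10, 9.47 and 9.60 with the RUNX1 shRNA, against 8.73, 8.72, 8.95 and 9.13 without it, with pair differences between 0.38 and 0.52. CD38, an ectoenzyme that consumes NAD, read 4.99, 4.48, 5.73 and 5.34 with it, against 3.70, 4.46, 4.58 and 4.19 without it, and its difference was 1.29, 1.15 and 1.15 in 3 pairs but 0.02 in the shRx1+shRx2 pair. Without the shRx2 array CD38 was the 1 gene that passed the limma test. Of 25 cytokine receptors and signal adaptors, 12 read higher in all 4 pairs and 3 lower (14.9% and 13% of all genes), among them IL10RA (0.40) and CSF3R (0.34), the receptor of granulocyte colony-stimulating factor, on the higher side and the kinase JAK1 (-0.26) on the lower. JAK2 had an estimate of 0.35 and a pair difference of 0.00 between shRx1 and shLuc.

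Lysosome genes also lay on the higher side. Of 25 tested, 12 read higher in all 4 pairs (14.9% of all genes) and 2 lower (13%), with a median of 0.15. PSAP, the precursor of the saposins that aid lipid breakdown, read 8.07, 8.38, 8.52 and 8.48 with the RUNX1 shRNA, against 7.54, 7.96, 7.56 and 7.71 without it (estimate 0.67, SE 0.109, limma adjusted p = 0.0841). The membrane protein LAMP1 read 7.74, 8.14, 8.32 and 8.33 with it, against 7.70, 7.86, 7.85 and 7.92 without it, so that the array labelled shRx1 lay among the arrays without the shRNA. Acid alpha-glucosidase GAA read 6.95, 7.42, 7.23 and 7.25 with it, against 6.71, 6.88, 6.96 and 6.99 without it. The E-box CACGTG, letters read by transcription factors of the MiT/TFE family that act on lysosome genes, was found in 7 of 15 lysosome promoters (46.7%), against 9.15% of all. The shares were 9.42% for genes higher and 9.54% for genes lower in all 4 pairs, both near that of all genes. Binding to these letters was not measured. The promoters of GAA (chr17:80101331-80101580) and LAMP1 (chr13:113296989-113297238), both on the plus strand, are shown with the E-boxes in capitals, 2 in GAA and 5 in LAMP1.
GAA: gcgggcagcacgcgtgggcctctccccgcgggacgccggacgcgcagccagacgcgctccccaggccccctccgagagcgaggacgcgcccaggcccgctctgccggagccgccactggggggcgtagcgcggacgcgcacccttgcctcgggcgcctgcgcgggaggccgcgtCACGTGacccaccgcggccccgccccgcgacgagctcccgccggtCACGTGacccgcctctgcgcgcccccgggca
LAMP1: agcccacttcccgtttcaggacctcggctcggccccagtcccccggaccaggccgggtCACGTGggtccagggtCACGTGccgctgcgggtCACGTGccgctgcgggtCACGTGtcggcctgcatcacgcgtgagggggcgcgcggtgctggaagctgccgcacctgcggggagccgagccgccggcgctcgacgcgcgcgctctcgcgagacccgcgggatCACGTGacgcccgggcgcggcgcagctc
TFEC, a factor of that family, had an estimate of 0.39 and read -0.05 below its partner in the shRx1+shRx2 pair.

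Autophagy, ubiquitin and traffic lists held even differences in a few members. Of 26 autophagy genes, 7 read higher in all 4 pairs and 3 lower (14.9% and 13% of all genes), with a median of 0.09. PIK3C3 (0.26), the lipid kinase that Beclin 1 activates, lay on the higher side without overlap, NBR1 (0.48), a cargo receptor, with overlap, and the receptor OPTN (-0.25) lay on the lower side. Of 30 ubiquitin genes, 7 read higher and 2 lower (14.9% and 13% of all genes), with SPOPL and UBE4A highest and the ligase NEDD4 (-0.34) lowest. Of 36 endosome and vesicle genes, 9 read higher and 1 lower (14.9% and 13% of all genes). VAPA, an anchor of membrane contact sites, read 8.00, 8.59, 8.89 and 9.20 with the RUNX1 shRNA, against 7.63, 7.97, 8.09 and 8.47 without it (estimate 0.63, SE 0.0819, limma adjusted p = 0.0817), and its paralogue VAPB had an estimate of -0.12. The medians of the ubiquitin and the endosome list were 0.10 and 0.05, against 0.01 over all genes tested.

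NRF2 antioxidant targets lay higher in part. Of 19 tested, 9 read higher in all 4 pairs and 0 lower (14.9% and 13% of all genes), sides did not overlap for 6 (5.15% of all genes), and the median was 0.12. Glutathione reductase GSR read 8.35, 8.37, 8.59 and 8.70 with the RUNX1 shRNA, against 7.95, 8.04, 8.16 and 8.24 without it (estimate 0.40, SE 0.0528, limma adjusted p = 0.0817). Heme oxygenase HMOX1, the highest of the list after ME1, read 6.01, 6.93, 7.08 and 7.01 with it, against 6.32, 6.55, 5.99 and 6.31 without it. It lay -0.31 below its partner on the array labelled shRx1 and 0.38, 1.09 and 0.70 above on the others. Of 17 interferon-stimulated genes, 7 read higher and 1 lower in all 4 pairs (14.9% and 13% of all genes), with SAMD9L (0.74), an antiviral and growth-limiting factor, highest and SAMD9 itself (-0.20) on the lower side in every pair.

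**Figure D5:**
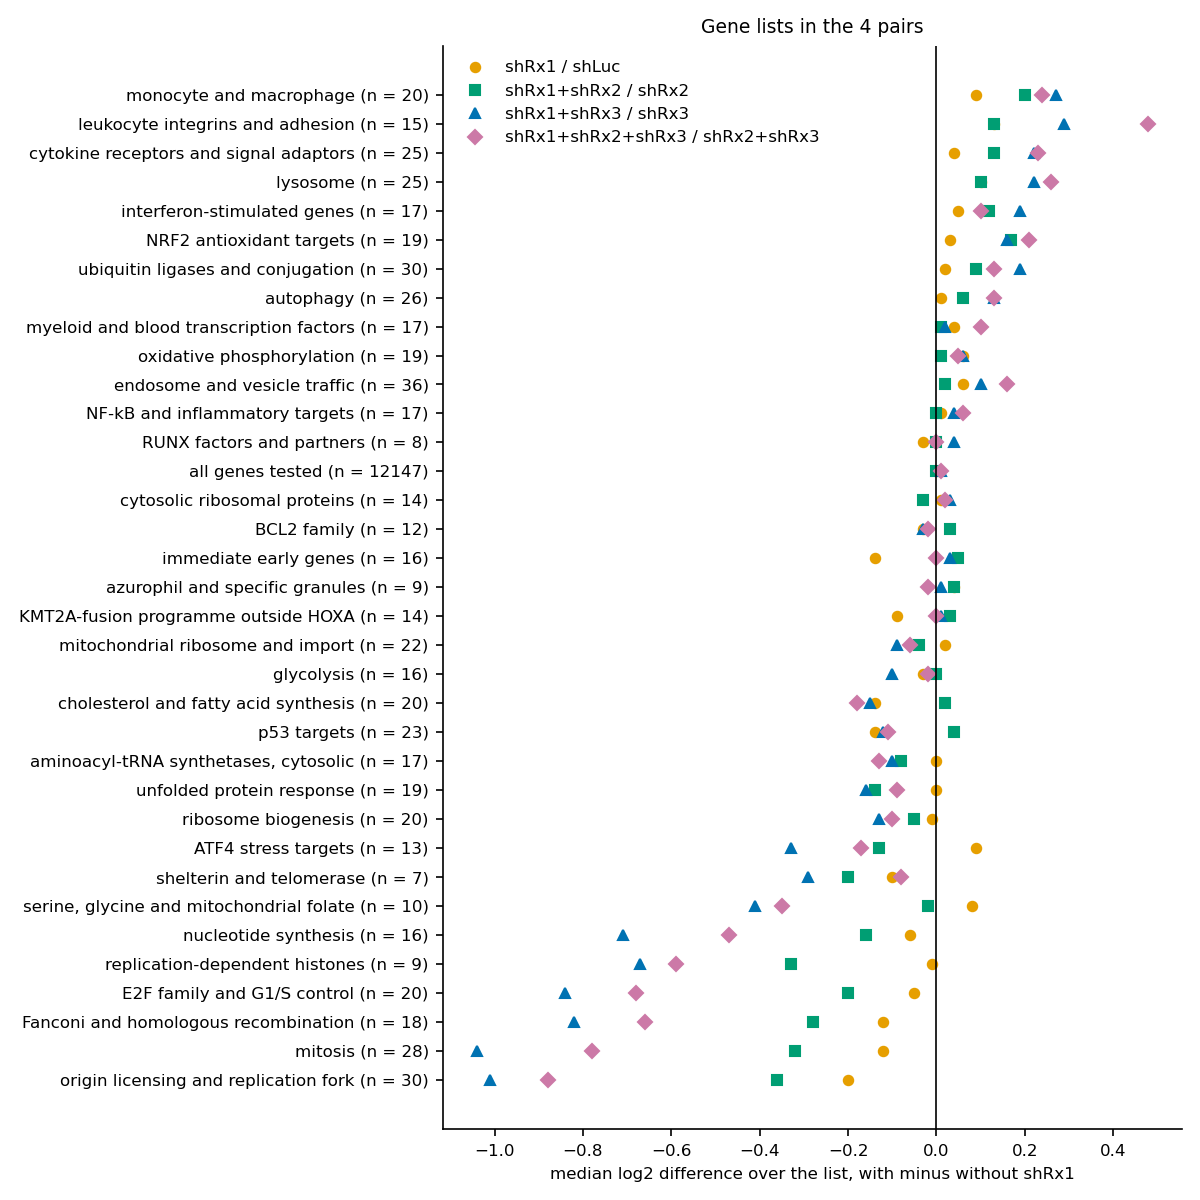
Median log2 difference, with minus without shRx1, in each of the 4 pairs for the 34 gene lists and for all 12147 genes tested, ordered by the median estimate, with some symbols overlapping. Origin licensing and mitosis lie lowest, with medians of -1.01 and -1.04 in the shRx1+shRx3 pair, and the monocyte and adhesion lists lie on the higher side in every pair.

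The counts of the following lists stand against 14.9% of all genes higher and 13% lower in all 4 pairs. Of 14 cytosolic ribosomal protein genes, 1 read higher in all 4 pairs and 0 lower, and the median rounded to 0.00. Among 9 azurophil and specific granule genes, the elastase ELANE (0.24), AZU1 (0.20) and the proteinase PRTN3 read higher in all pairs, and cathepsin G CTSG (-0.18) lay on the other side. Of 14 genes of the KMT2A-fusion programme, 3 read higher and 2 lower, and the receptor kinase FLT3 had an estimate of -0.05. Of 17 myeloid and blood transcription factors, 5 read higher, among them LYL1 (0.35) without overlap, and 1, GFI1 (-0.10), read lower, while the myeloid regulators SPI1 (-0.05) and CEBPA (0.03) lay near 0. Among the 8 tested RUNX factors and partners, 1 read higher and 1 lower in all 4 pairs, and the median was 0.01. The higher one, the corepressor TLE4, read 6.22, 6.24, 6.28 and 6.32 with the RUNX1 shRNA, against 5.97, 6.04, 5.89 and 6.01 without it. The sides did not overlap for TLE4 and, in the other direction, for 1 gene (5.15% and 4.73% of all genes). Of 7 tested genes of shelterin and telomerase, 3 read lower in all 4 pairs and 0 higher. TERF1, which binds telomere repeats, read 6.16, 5.65, 5.16 and 4.89 with it, against 6.31, 6.18, 6.07 and 6.11 without it.

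Lipid and stress lists held members on both sides. Of 20 cholesterol and fatty acid synthesis genes, 7 read lower and 1 higher in all 4 pairs (13% and 14.9% of all genes), and the median was -0.07. The stearoyl-CoA desaturase SCD read 8.91, 8.37, 8.16 and 8.13 with the RUNX1 shRNA, against 9.14, 8.85, 9.07 and 9.04 without it, and the sterol reductase TM7SF2 had an estimate of 0.37. Of 19 unfolded protein response genes, 4 read lower and 3 higher, and the median was -0.08. Estimates were negative for 14 of the 19 (5732 of 12147 over all genes). The sides did not overlap for 2 genes on the lower side (4.73% of all genes) and for 2 on the higher side (5.15%), EDEM1 (0.46) and the sensor ERN1 (0.33). At an unadjusted limma p under 0.05, 8 lay lower and 2 higher (1217 and 1363 of 12147 over all genes). Without the array labelled shRx1, limma called 5 lower and 2 higher (3.75% and 2.98% of all genes). Of 23 p53 targets, 3 read lower and 4 higher, from TRIAP1 (-0.48) to TP53INP1 (0.39). Of 19 oxidative phosphorylation genes, 5 read higher and 0 lower, all by small amounts: the complex II subunit SDHD read 7.20, 7.24, 7.19 and 7.23 with it, against 7.04, 7.05, 6.96 and 7.06 without it.

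Marker lists of other cells gave little signal. Of the listed erythroid, megakaryocyte, B cell, T and NK cell and fibroblast or epithelial markers, 3 of 11, 3 of 8, 4 of 7, 2 of 8 and 2 of 9 passed the level filter, and the mean level of these lists lay between 3.60 and 4.47 on all 8 arrays, except for 5.01 to 5.61 with and 5.14 to 5.35 without the RUNX1 shRNA for the 2 T and NK genes, CD8A and NKG7. The B cell genes CD79A (0.10) and CD79B (0.06) read higher in all 4 pairs. Myeloid markers of the labelled line were read at a mean level of 7.90 to 8.08 with the RUNX1 shRNA and 7.81 to 7.97 without it over 9 tested genes. The part of cell composition in the gene differences was not tested.

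Whether the RUNX1 shRNA difference depended on the RUNX3 shRNA was tested with an interaction term. No gene passed (0 of 12147, 0%; limma), and 1544 (12.7%) had an unadjusted p under 0.05. Those with the 5 smallest p were CD84, LGALS12, SLC29A1, NCS1 and ZNF189, all at adjusted p = 0.249. CD84, a SLAM-family receptor of leukocytes, did not pass the stricter level filter. Its pair differences were 1.43 and 1.47 with the RUNX3 shRNA and 0.36 and 0.20 without it. SLC29A1, the nucleoside transporter ENT1, had -1.05 and -1.07 with it and -0.03 and -0.22 without it. The galectin LGALS12 had -0.94 and -0.96 with it and 0.11 and -0.12 without it. The calcium sensor NCS1 and the zinc finger gene ZNF189 had interaction estimates of -0.86 (SE 0.111) and 0.82 (SE 0.106).

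For the RUNX2 shRNA the interaction had 0 genes past the limma test (0%) and 285 at an unadjusted p under 0.05 (2.35%). ZNF736, a zinc finger gene, read higher with the RUNX1 shRNA on the arrays with the RUNX2 shRNA, by 0.65 and 0.52, and lower on those without it, by -0.56 and -0.55 (interaction 1.14, SE 0.126, limma adjusted p = 0.956). MGMT, which repairs alkylated guanine, had differences of 0.41 and 0.33 with the RUNX2 shRNA and -0.36 and -0.19 without it. Levels of both genes lay between 3.31 and 4.69, close to the filter. TGM6, THAP3 and RADIL were the other genes of smallest p, each at adjusted p = 1.

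The RUNX1 shRNA was set against the other hairpins in the same fit, on the same 8 arrays. The same direction in all 4 pairs was read for 3390 genes (27.9%) with the RUNX1 shRNA, 1700 (14%) with the RUNX2 shRNA and 1862 (15.3%) with the RUNX3 shRNA. The estimates for RUNX1 and RUNX2 shRNAs differed past the limma test for 0 genes (0%), with 1111 (9.15%) at an unadjusted p under 0.05, and those for RUNX1 and RUNX3 shRNAs for 0 genes (0%), with 898 (7.39%). WWC1, a scaffold of the Hippo pathway, had an estimate of -0.27 for the RUNX1 shRNA and 0.27 for the RUNX2 shRNA (adjusted p of the difference 0.379). PDE4DIP, a Golgi and centrosome protein, had 0.56 and -0.14, also at adjusted p = 0.379. LSP1, an actin-binding protein of leukocytes, read 5.05, 4.91, 4.91 and 4.87 with the RUNX1 shRNA, against 4.42, 4.59, 4.18 and 4.29 without it, and its estimates were 0.56 for the RUNX1 and -0.18 for the RUNX3 shRNA (adjusted p of the difference 0.327). The zinc transporter SLC39A9 had 0.14 for the RUNX1 and -0.70 for the RUNX3 shRNA at the same adjusted p.

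Arrays outside the pairs were read for the same genes. The labels describe Chb-M' and Chb-50 as a PIP treatment, given to cells without a hairpin. Of the 1810 genes that read higher in all 4 pairs, 51.4% read higher with Chb-M' than with DMSO, and of the 1580 lower ones 56.3% did, against 54.3% of all genes tested. With Chb-50 the shares were 46.9% and 49.9%, against 49.5% of all genes. These shares lay near those of all genes, on 1 array per treatment and at another time than the knockdowns. Single genes went both ways: ME1 read -0.64 with Chb-M' relative to DMSO and 0.69 with the RUNX1 shRNA, the kinesin KIF18A read -1.21 and -0.79, and cyclin E2 CCNE2 read 1.02 and -0.81.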

How the data were processed

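RNA from 11 MV4-11 cultures was hybridised to Affymetrix arrays, each condition once, and the 8 knockdown arrays were compared here. The authors deposited log2 levels per transcript cluster, a scale read from their range of 0.485 to 12.74. RMA, Transcriptome Analysis Console 1.0 and Affymetrix Expression Console 1.3.1 are named in the submitters' processing notes, without role or order. No source used here gives the genome build of the probe annotation. Labelling used the WT PLUS kit, per the labels' protocols.

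The platform annotation paired 23558 of 53617 clusters with 1 gene symbol, 2155 with several and 27904 with none. By Entrez identifier, 22271 were matched to RefSeq's gene table (GRCh38.p14), and 3 symbols were updated. A gene with several clusters (618 of 22109) was represented by its brightest cluster on average. The level filter asked for at least 3.80, the median over 1-symbol clusters, on 1 or more of the 11 arrays, and kept 12147 genes (10570 protein-coding). No detection p-values were used, so how far a signal lay above background is unknown, and precision is limited by the number of arrays.

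Effects on the 8 arrays were estimated with limma 3.58.1 (R 4.3.3), taking the 3 shRNAs as additive terms (4 residual and 3.19 prior degrees of freedom), or with 1 interaction added. P-values were moderated by eBayes and adjusted by Benjamini-Hochberg over all genes tested, with a threshold of 0.05. RUNX and CBFB readings were compared by an exact two-sided permutation test, adjusted over 4 readings. Pair counts and medians of 34 gene lists and 6 marker lists carry no test. The fits and counts were tested on simulated data.

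The pairs, gene lists and tests were chosen with earlier results of these data known. Genes were named by a rule: RUNX genes and CBFB, the 15 protein-coding genes per direction with the largest smallest pair difference, the 5 of smallest p in each fit where none was called (otherwise up to 8 per direction), and the 2 highest and 2 lowest of each list, with further list members where a list is described by role. Genes named in counts of 5 or fewer were chosen after their values were seen. Small RNAs were counted but not named. Promoter letters came from a RefSeq table (GRCh38.p14) over 250 bases before the start, for 9181 of the 12147 genes. Alternatives tried were 2 other level filters, 2 other scalings, the mean of a gene's clusters, 4 other models and leaving out each array in turn.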

Additional observations from a re-analysis of the deposited data

Results flagged for a closer look

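For 136 sets of 4 arrays (readings, named genes and list means on either side), the array farthest from the others was checked with Dixon's test. The test flags about 1 in 20 by chance, and it flagged 7, near that share. The 4 arrays of a set differ in their other hairpins. With the RUNX1 shRNA, RUNX3 read 8.37 on shRx1+shRx2, against 7.65 to 7.70 on the other 3 arrays. Of those 3, shRx1+shRx3 and the triple knockdown carry the RUNX3 shRNA. Without the RUNX1 shRNA, shLuc and shRx2 read 8.15 and 8.24. KHK read 4.54 on shRx1+shRx3, against 4.90 to 4.96 on the others. The p53 target list had a mean level of 6.28 on shRx1+shRx2, against 5.96 to 5.99 on the others with the RUNX1 shRNA, and of 6.14 on shRx2, against 6.08 to 6.09 on the others without it. Without the RUNX1 shRNA, the ribosomal protein list had a mean level of 7.85 on shRx2+shRx3 (7.80 to 7.81 on the others), the endosome and vesicle list 7.67 on shRx2 (7.64 on the others) and the ubiquitin list 7.0 on shRx2 (7.06 to 7.07 on the others).

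Some named genes read higher with the RUNX1 shRNA in both pairs with a partner hairpin and lower in both pairs without it, or the reverse. The difference of the RUNX1 shRNA effect, with minus without the RUNX2 shRNA, was 1.14 for ZNF736, 0.64 for MGMT, -0.78 for TGM6, -0.73 for THAP3, -0.68 for RADIL and -0.12 for CBFB, whose triple knockdown pair differed by an amount that rounds to 0.00. For the RUNX3 shRNA it was -0.71 for the histone gene H2BC15, -0.37 for the cytokine signalling inhibitor SOCS1, -0.17 for RPL6, -0.16 for GART and 0.10 for the shelterin subunit TINF2. None of these differences passed the limma interaction test over all 12147 genes.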

How the results depend on the processing

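For the RUNX1 shRNA, 0 of 12147 genes passed the limma test, and 0 passed without a level filter, after centring each array on its median, after quantile normalization, with the mean of a gene's clusters, with the RUNX1 term alone or with all 11 arrays, where the compound arrays add no residual degrees of freedom. The stricter filter gave 34 calls and eBayes with trend and robust 65; the cause was not tested. The replicate block, which took the 4 pairs given by the labelled shRNAs as blocks because the labels number every array as replicate 1, gave 0 calls (2485 at an unadjusted p under 0.05), so the pairing changed no call. Leaving out 1 array at a time gave between 0 and 817 calls: 817 without shRx1, 1 (CD38) without shRx2, 1 (SMIM14) without shRx1+shRx3 and 0 otherwise. The differences between hairpins gave 0 to 1 call for RUNX1 minus RUNX2 (CD38 without shRx2) and 0 to 1 for RUNX1 minus RUNX3 (ANKFN1 without shRx2, SMIM14 without shRx1+shRx3), and both interactions gave 0 in every setting. Without any 1 array, and so on 3 pairs, between 2203 and 3179 genes read higher and between 1968 and 2580 lower, and 5 to 31 genes were at least 1.5-fold apart in every pair. The RUNX1 and LOC100506403 cluster differed by -0.26 to -0.16 over the arrays left out, and by -0.23 (exact permutation p = 0.0286, the smallest possible) after centring, where the sides no longer overlapped. Shares of genes reading higher with Chb-M' stayed between 49.2% and 52.8% for the higher and between 55.6% and 57.0% for the lower genes. Of 178 named genes, 160 kept the sign of their estimate in every setting, and 25 of 34 list medians moved by less than their spread over pairs in every setting.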

Other observations

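Immediate early and inflammatory genes were not described above. Of 16 tested immediate early genes, 3 read higher and 2 lower in all 4 pairs (14.9% and 13% of all genes). FOS read 7.73, 7.76, 8.05 and 8.39 with the RUNX1 shRNA, against 7.58, 7.54, 7.12 and 7.31 without it, while JUND, a partner of FOS in AP-1, read 8.43, 8.40, 8.17 and 8.08 with it, against 8.59, 8.59, 8.70 and 8.59 without it. Neither gene's sides overlapped (limma adjusted p = 0.125 for FOS and 0.102 for JUND). Of 17 NF-kB and inflammatory targets, 3 read higher and 1 lower, and that 1 was the cytokine gene TNF, at 7.04, 7.25, 6.82 and 6.85 with the shRNA, against 7.75, 7.41, 7.60 and 7.40 without it (limma adjusted p = 0.089).

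Alanyl-tRNA synthetase AARS1 read 9.67, 9.30, 9.04 and 9.14 with the RUNX1 shRNA, against 9.73, 9.53, 9.67 and 9.61 without it, and 6 of 17 cytosolic aminoacyl-tRNA synthetase genes read lower and 1 higher in all 4 pairs (13% and 14.9% of all genes). Of 20 ribosome biogenesis genes, 7 read lower and 0 higher (13% and 14.9% of all genes). The glucose transporter SLC2A1 read 8.14, 8.07, 7.84 and 7.89 with the shRNA, against 8.32, 8.18, 8.38 and 8.23 without it. The survival gene BCL2 had pair differences of -0.39, 0.05, -0.23 and -0.38, and MCL1 had an estimate of 0.01. On the 8 arrays limma called no gene of these 2 paragraphs, with or without the trended and robust prior.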
